A study of Mus musculus with 2 samples.

Results

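The RNAs encoded by mitochondrial DNA were examined in the mouse colon. Members were all genes of the deposited gene tables whose GENCODE symbol starts with mt-, and 37 were found among 69691 features, of which 43346 were Ensembl genes. They comprise 13 mRNAs, 2 rRNAs and 22 tRNAs. Each member has 1 transcript, and its gene and transcript counts were the same within 0.01 reads in both libraries.

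The study profiled polyadenylated RNA of colon from C57BL/6J mice aged 8 weeks, with no treatment or genetic change stated. There is 1 group of 2 libraries, which the labels number as replicates 1 and 2 and describe as pooled littermates of both sexes. The labels give separate biosample records and 1 donor record for them. Whether the spread between them is between animals is not stated, and the libraries are compared with each other only. The RNA was depleted of rRNA, selected for poly(A) and for a size above 200 nt, and sequenced from both ends at 76 nt.

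The mitochondrial genome is a small circle present in many copies per cell. It is transcribed from both strands into long precursors, and the tRNAs that lie between most mRNAs and rRNAs are cut out of them, which frees the other RNAs. Most of the mRNAs then receive short poly(A) tails. The mRNAs encode core subunits of the respiratory chain and of ATP synthase, whose remaining subunits come from nuclear genes. In the colon, the respiratory chain of absorptive epithelial cells is known for burning butyrate supplied by gut bacteria.

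The libraries stood apart in pancreatic, erythroid and sex-linked transcripts. All 6 markers of colon epithelium were present, with a summed level of 23499 TPM in replicate 1 and 26003 TPM in replicate 2, and the hindgut gene Hoxb13 was at 301 and 345 TPM. TPM is the abundance per effective length, scaled to 1 fixed total per library. All 11 pancreatic acinar genes were at least 2-fold higher in replicate 2, against 5.11% of all genes tested, with a sum of 32.9 TPM in replicate 1 and 36817 TPM in replicate 2, and none was at 0. All 5 erythroid genes were also at least 2-fold higher there, with sums of 525 and 2998 TPM. Of 4 striated muscle genes, 3 were tested, and they went both ways. Acta1 had 1430 counts in replicate 1 and 355 in replicate 2, Ckm had 3519 and 2350, and Tnnt3 had 5 and 12. At least 2-fold higher in replicate 1 was 1 gene, Acta1, against 3.63% of all genes tested. In replicate 2 it was 1 gene, Tnnt3, against 5.11%. Xist, the RNA of the inactive X chromosome, had 8721 counts in replicate 1 and 12 in replicate 2. The 4 Y-linked genes Kdm5d, Eif2s3y, Uty and Ddx3y had 0 counts in replicate 1 and 127 to 886 in replicate 2. These values go against the label of pooled sexes and against 1 shared pool for both libraries, and sex and library cannot be told apart in any ratio between them. Total expected counts, meaning the authors' estimated read numbers, were 46689262 and 45966841.

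Several features of the sequences themselves bear on the values. As annotated, 3 of the 13 mRNAs end on a lone T, which the poly(A) tail turns into a whole stop codon. These are mt-Co3, mt-Nd4 and mt-Cytb, and the last 24 bases of the first 2 are shown beside those of mt-Co1 and mt-Nd6, 2 of the 10 with a whole stop codon, which is in capitals in each. Positions are mm10, with gene models from GENCODE vM21.
mt-Co3, M:9367-9390, plus strand: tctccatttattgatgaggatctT
mt-Nd4, M:11521-11544, plus strand: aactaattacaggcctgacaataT
mt-Co1, M:6849-6872, plus strand: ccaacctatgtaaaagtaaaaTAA
mt-Nd6, M:13552-13575, minus strand: attatcgagattactcgagatTAA

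Other members overlap. The whole mt-Atp8 transcript is 204 nt and is shown because its length sets how its level is computed; its last 43 bases, in capitals, are also the start of mt-Atp6. mt-Nd4l and mt-Nd4 share 7 bases, and mt-Nd5 and mt-Nd6 share 14 on opposite strands. Among shorter overlaps, mt-Atp6 meets mt-Co3, and the annotated ends of mt-Nd1, mt-Nd2 and mt-Co1 run into the tRNAs mt-Ti, mt-Tw and mt-Ts1. Whether the authors counted by strand is not given in the sources used here, so reads in shared bases are uncertain.
mt-Atp8, M:7766-7969, plus strand: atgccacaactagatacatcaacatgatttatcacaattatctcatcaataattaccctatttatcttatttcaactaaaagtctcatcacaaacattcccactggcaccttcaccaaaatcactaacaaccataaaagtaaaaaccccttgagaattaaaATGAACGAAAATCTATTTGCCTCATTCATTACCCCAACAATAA

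A nuclear copy of part of the mitochondrial genome lies on chromosome 1, where 7 unprocessed pseudogenes lie in a row on the minus strand (1:24611535-24616197, mm10). Of these, 5 are identical over their length to the start of their member and 2 differ from it by a few bases near their own 5′ end. Gm28438 carries 1 difference from mt-Nd3, T3C, and Gm29216 carries 6 from the last 492 bases of mt-Co1, which are T3A, C4T, A6G, A7G, C9A and A13T. Positions count from 1 at the copy's 5′ end, with the member's base first. The 60 bases that hold these differences are shown in pairs, with the differing bases in capitals, because within the shared stretch only reads over them tell copy from member.
mt-Co1, M:6381-6440, plus strand: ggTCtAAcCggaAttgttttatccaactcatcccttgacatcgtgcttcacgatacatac
Gm29216, 1:24616138-24616197, minus strand: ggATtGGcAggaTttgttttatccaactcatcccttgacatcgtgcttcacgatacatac
mt-Nd3, M:9459-9518, plus strand: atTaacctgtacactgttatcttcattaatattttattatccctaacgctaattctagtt
Gm28438, 1:24613060-24613119, minus strand: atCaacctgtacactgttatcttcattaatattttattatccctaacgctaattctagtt

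Mitochondrial RNAs made up 1.52% of all expected counts in replicate 1 (95% exact binomial interval 1.521 to 1.528) and 1.08% in replicate 2 (1.077 to 1.083), a mean of 1.30% ± 0.314 (SD, n = 2). Such intervals cover counting error only. Their summed level was 22701 TPM in replicate 1 and 15246 TPM in replicate 2. With the nuclear copies of these genes added it was 37057 and 24786 TPM, while the share of counts was 1.83% and 1.33%. TPM is per effective length, and Gm29216, a copy of only 492 bases of mt-Co1, had 12220 and 6738 TPM. Counts fell on 15 of the 37 members, namely all 13 mRNAs and both rRNAs. In bulk tissue, fewer cells of a type and less RNA per cell cannot be told apart.

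All 22 tRNAs, from mt-Tf to mt-Tp along the circle, were listed at 0 counts in both libraries. They are 59 to 75 nt long, below the size selected, and the authors' effective length was 0 for each. A count of 0 otherwise allows up to 3 counts, or 6.43e-06% of replicate 1 and 6.53e-06% of replicate 2. The shortest, mt-Ts2, a serine tRNA, is shown whole for its size.
mt-Ts2, M:11613-11671, plus strand: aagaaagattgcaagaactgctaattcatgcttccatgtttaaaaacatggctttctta

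The 3 mRNAs of cytochrome c oxidase, complex IV, led the profile with 70.6% of the mRNA TPM in replicate 1 and 68.7% in replicate 2 (69.7% ± 1.40, n = 2). mt-Co1 encodes the catalytic subunit that reduces oxygen (ENSMUSG00000064351.1, M:5328-6872) and was highest of all members, at 9422 and 6455 TPM. It took 64.6% and 63.0% of all mitochondrial counts and ranked 6 and 15 by TPM among all Ensembl genes. mt-Co3, another core subunit, followed with 5115 and 2617 TPM. mt-Co2, whose product takes electrons from cytochrome c, was far lower with 1371 and 1233 TPM.

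ATP synthase, complex V, has 2 mitochondrial subunits, which are translated from overlapping frames. mt-Atp6, whose product forms the membrane path for protons, was at 1513 and 1257 TPM from 26038 and 21802 counts. mt-Atp8, a small membrane subunit, was listed at 2318 and 1127 TPM from only 241 and 354 counts. So the library with fewer mt-Atp8 counts had the higher mt-Atp8 TPM.

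The authors' effective length moved with that contrast. It is an average, over the library's fragment lengths, of the number of positions at which a fragment could start. The annotated length of long members exceeds it by an amount that implies a mean fragment of 211.3 nt in replicate 1 and 200.6 nt in replicate 2. mt-Atp8 is about that long, and its effective length was 2.84 in replicate 1 and 8.72 in replicate 2. Divided by its annotated length and scaled to the same total, its level was 42.1 and 61.8, so its TPM is 55.1 and 18.2 times as large. By mean level it moved from rank 3 of the 15 members in TPM to rank 12 per annotated length. The next shortest mRNAs, mt-Nd4l with 297 nt and mt-Nd3 with 348 nt, have TPM 2.37 and 1.83 times their level per annotated length in replicate 2.

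**Figure D1:**
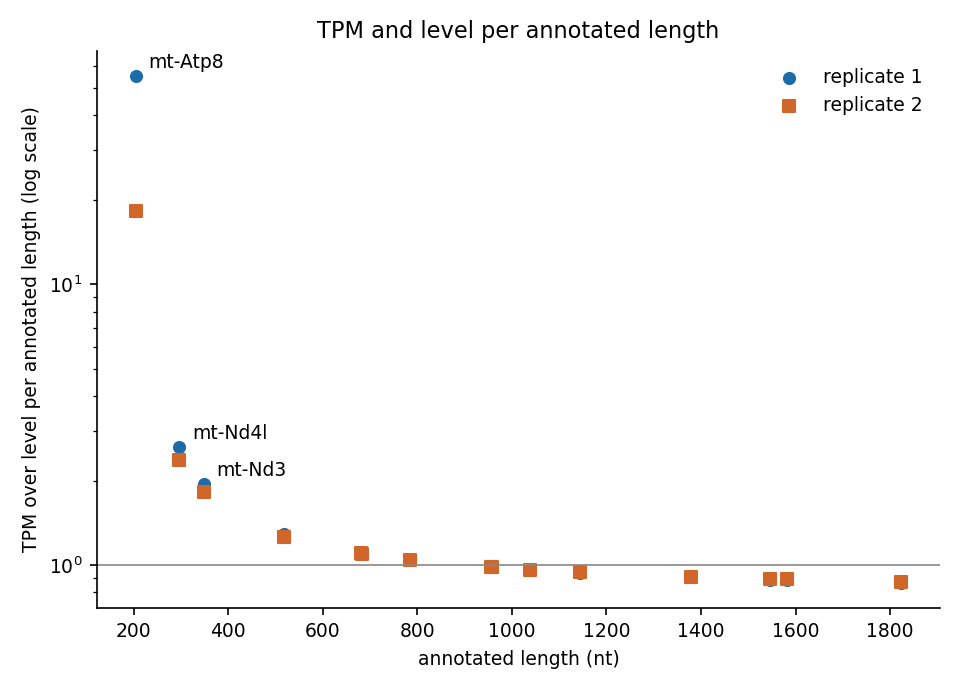
TPM divided by the level per annotated length (log axis) against annotated length in nt, for the 13 mRNAs and 2 rRNAs, with circles for replicate 1 and squares for replicate 2. mt-Atp8 stands at 55.1 and 18.2, mt-Nd4l and mt-Nd3 are next, and longer RNAs lie close to the line at 1, where many circles are hidden under squares.

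Cytochrome b, the only mitochondrial subunit of complex III, carries the hemes that pass electrons from ubiquinol. Its mRNA mt-Cytb was at 1157 TPM in replicate 1 and 895 TPM in replicate 2. It has no close nuclear copy and no overlap with another member, and mt-Co1 was 8.14 and 7.21 times as high in TPM.

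The 7 mRNAs of complex I, the NADH dehydrogenase, were lower, with sums of 1623 TPM in replicate 1 and 1425 TPM in replicate 2. mt-Nd4, one of the subunits related to antiporters, was at 468 and 479 TPM, and mt-Nd1, which helps form the quinone site, was at 495 and 416 TPM. The small subunit mRNA mt-Nd4l was listed at 385 and 279 TPM. The antiporter-like subunits mt-Nd5 and mt-Nd2 were lower still. mt-Nd5 was at 147 and 128 TPM and mt-Nd2 at 85.9 and 92.5 TPM. mt-Nd3, another small membrane subunit, had 38.1 and 23.2 TPM.

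mt-Nd6 is the only mRNA annotated on the minus strand and was the lowest of the 15 in both libraries. It had 5.76 TPM from 65 counts in replicate 1 and 7.12 TPM from 82 counts in replicate 2. mt-Nd5, which overlaps its 3′ end on the other strand, was 25.4 and 17.9 times as high in TPM. From mt-Nd6 up to mt-Co1, the members spanned 1636-fold in replicate 1 and 907-fold in replicate 2. The libraries were selected for poly(A), and the part that tails play in these levels was not tested.

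The rRNAs stayed low in these rRNA-depleted, poly(A)-selected libraries. mt-Rnr2, the large-subunit rRNA, was at 160 TPM from 8049 counts in replicate 1 and 201 TPM from 10027 counts in replicate 2. mt-Rnr1, the small-subunit rRNA, was at 20.97 TPM from 571 counts and 36.7 TPM from 1000 counts. Although the pair is cut from 1 precursor, mt-Rnr2 was 7.65 and 5.48 times as high in TPM, and both rRNAs were lower in replicate 1. Together they held 0.0185% of all counts in replicate 1 and 0.0240% in replicate 2.

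Ordered by mean TPM, 10 of the 14 neighbouring pairs did not overlap in range over the libraries. The 4 that did were mt-Atp8 with mt-Atp6, mt-Atp6 with mt-Co2, mt-Nd4 with mt-Nd1, and mt-Nd3 with mt-Rnr1. With 2 libraries such a range gives only a rough spread.

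**Figure D2:**
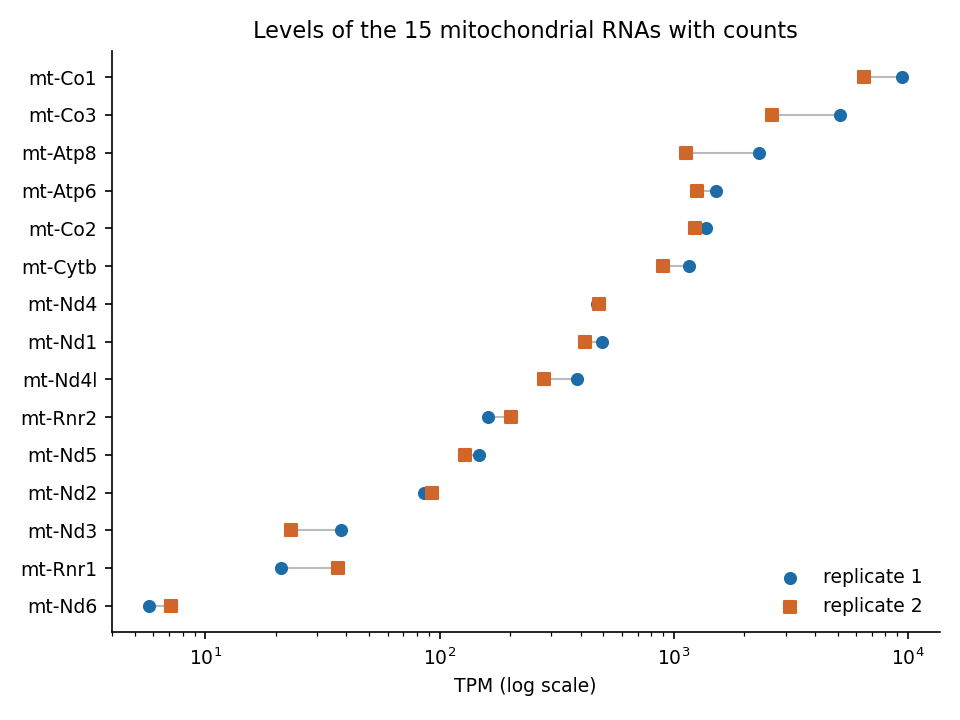
TPM on a log axis for the 15 members with counts, ordered by mean, with circles for replicate 1, squares for replicate 2 and a line joining the values of 1 member. mt-Co1 leads at 9422 and 6455, mt-Nd6 is last at 5.76 and 7.12, and mt-Rnr1, mt-Rnr2, mt-Nd2, mt-Nd4 and mt-Nd6 are higher in replicate 2.

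The nuclear copies on chromosome 1 took many reads. They held 142194 expected counts in replicate 1 and 113265 in replicate 2, while 8 more distant copies elsewhere, less than 99% identical over their aligned bases, held only 15.1 and 27.4. Gm29216, the copy of the end of mt-Co1, had 125911 and 71013 counts. Its level was 12220 and 6738 TPM, above that of mt-Co1 itself in both libraries, and it ranked 3 and 13 among all Ensembl genes. Per annotated base it had 256 counts in replicate 1 and 144 in replicate 2, against 298 and 203 for mt-Co1.

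The division of reads between member and copy was not the same in each library. For mt-Co3, its identical copy Gm28437 was given 8917 counts in replicate 1 and 30558 in replicate 2, which is 7.67% and 35.7% of the pair's counts. Gm28661 was given 9.08% and 27.8% of the counts it shares with mt-Co2. Gm10222 was given 78.8% and 72.5% of those shared with mt-Nd4l, and Gm28438 70.7% and 79.5% of those shared with mt-Nd3. So the nuclear copies hold most of the expected counts of the mt-Nd4l and mt-Nd3 pairs, and which source the reads came from was not tested. Gm10925, which matches mt-Atp6, had 0 and 345 counts. Gm28439, which matches the first 876 bases of mt-Nd4, had 0 in both libraries, although mt-Nd4 also has 502 bases that the copy lacks.

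**Figure D3:**
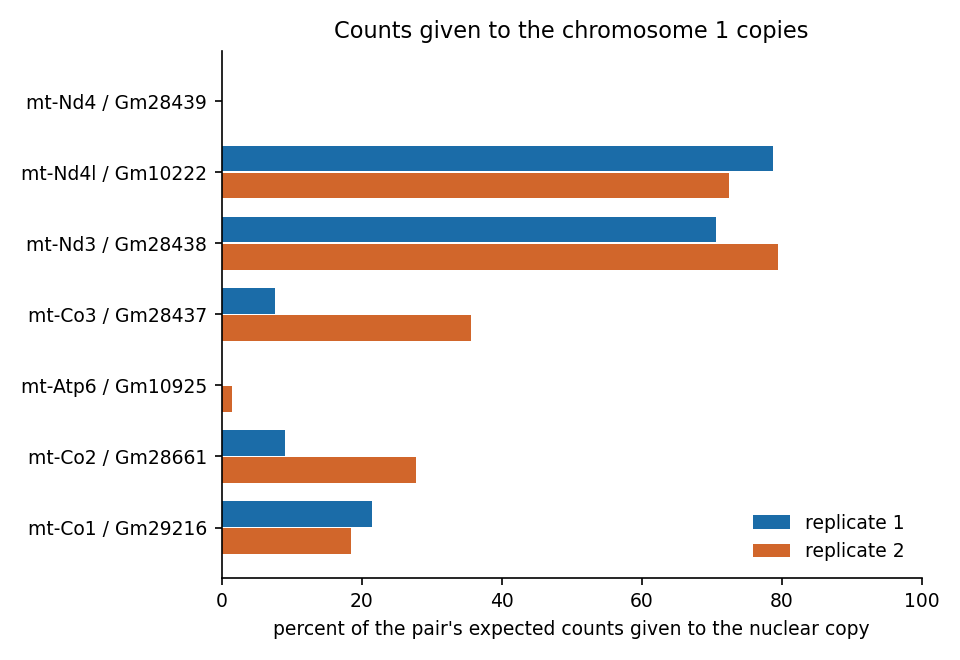
Percent of the summed expected counts of each member and its near-identical copy on chromosome 1 that the authors' tables give to the copy, with blue bars for replicate 1 and orange bars for replicate 2. The copies of mt-Nd4l and mt-Nd3 take over 70% in both libraries, while the copy of mt-Co3 takes 7.67% in replicate 1 and 35.7% in replicate 2, and the copy of mt-Nd4 takes none.

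Counts within these pairs were mostly not whole numbers. Over the 7 pairs in 2 libraries, the member's count was whole, within 0.02 of a whole number, in 3 of 14 cases, while the sum of member and copy was whole in 10 of 14. The other 4 sums were those of mt-Co1 and mt-Co2, which also match distant copies. The 8 members with counts and no near-identical copy had whole counts in both libraries.

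The tables also give a posterior SD, the uncertainty of a count that comes from assigning reads among features. It was 0 for those 8 members in both libraries. For mt-Nd3 it was 62.7% of the count in replicate 1 and 122% in replicate 2, and for mt-Nd4l 30.8% and 63.3%. For mt-Co3 it was 14.0% and 29.9%, for mt-Co2 8.99% and 20.2%, and for mt-Atp6 2.88% and 12.3%. For mt-Co1, whose first 1053 bases Gm29216 lacks, it was only 0.0607% and 0.0730%.

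The SD was high where nearly all of a member is found elsewhere. Of all windows as long as a read, 76 bases, the share also present in a transcript outside chromosome M was 97.8% for mt-Nd3, 98.6% for mt-Nd4l, 99.9% for mt-Co3 and 99.5% for both mt-Co2 and mt-Atp6. It was 61.5% for mt-Nd4 and 39.4% for mt-Co1, and 0% for mt-Atp8, mt-Nd1, mt-Nd6, mt-Cytb and both rRNAs. The share was 5.61% for mt-Nd2 and 1.54% for mt-Nd5.

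**Figure D4:**
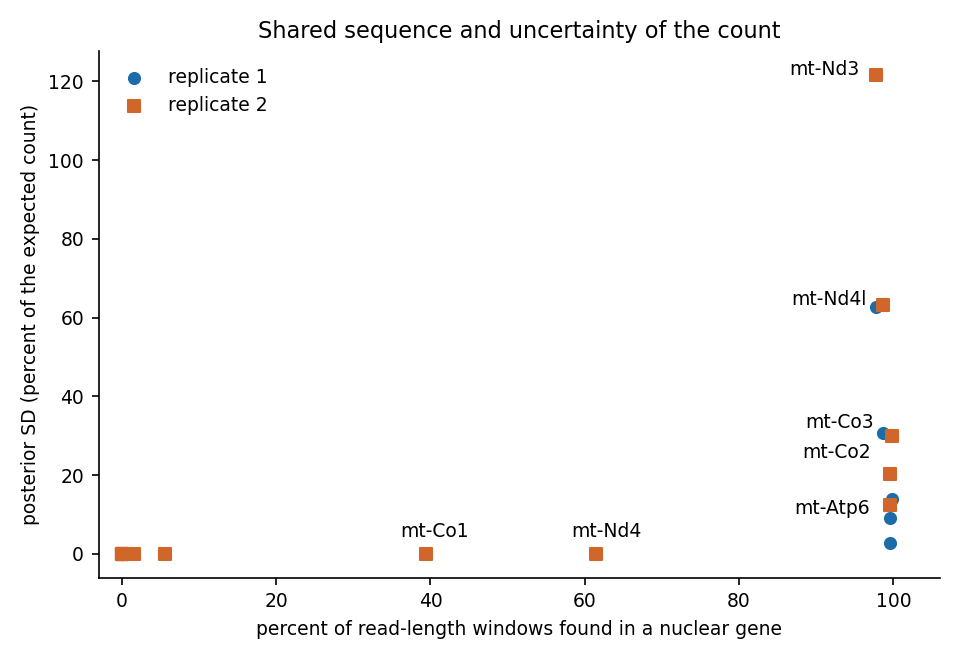
Posterior SD of the count, as percent of the expected count, against the percent of 76-base windows of a member found in a transcript outside chromosome M, for the 15 members, with circles for replicate 1 and squares for replicate 2. The 5 members with over 97% of windows shared reach from 2.88% to 122%, and all others lie below 0.1%, where circles are hidden under squares.

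Between the libraries, summed mitochondrial counts were higher in replicate 1, with a log2 ratio of 0.49 (0.48 to 0.49, counting error only) of counts scaled by the TMM method with 0.5 added. The summed mRNAs were at 0.50 and the summed rRNAs at -0.39 (-0.43 to -0.35), so the class sums differed in direction. Taken singly, 9 of the 13 mRNAs were higher in replicate 1, with a median of 0.22 over the 13. Among mRNAs, complex IV was at 0.57, complex III at 0.34, complex V at 0.21 and complex I at 0.07. The median of all genes tested was -0.01.

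No member was 2-fold apart, which is 0 of the 15 with a summed count of at least 10, while over all 17713 genes tested 8.74% were. Few highly counted genes pass that fold, since among the 8914 genes with at least 1000 counts it was 1.27%. An absolute log2 ratio of 0.5 was reached by 5 of 15 members and by 22.5% of all genes. Of these, mt-Co3 (0.93), mt-Nd3 (0.60) and mt-Co1 (0.52) were higher in replicate 1, and mt-Rnr1 (-0.84) and mt-Atp8 (-0.59) in replicate 2. A ratio above 0 was found for 9 of 15 members and for 49.4% of all genes.

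Adding the counts of the copies to their members changed these ratios. For mt-Co3 the ratio went from 0.93 to 0.41, and for mt-Nd3 from 0.60 to 0.08 (-0.08 to 0.25). For mt-Nd4l it rose from 0.29 to 0.66. For mt-Co2 it turned from 0.11 to -0.22, while for mt-Co1 it stayed close, at 0.58. So the size of the ratio for mt-Co3, mt-Nd3 and mt-Nd4l, and both size and direction for mt-Co2, depended on whether the copies were counted in. mt-Cytb (0.34), mt-Nd1 (0.22), mt-Nd5 (0.18), mt-Nd4 (-0.06), mt-Nd2 (-0.14), mt-Rnr2 (-0.35), mt-Rnr1 (-0.84), mt-Atp8 and mt-Nd6 have no copy with counts, so nothing was added to them. For mt-Nd6 (-0.37) the counting interval from -0.86 to 0.12 includes 0.

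**Figure D5:**
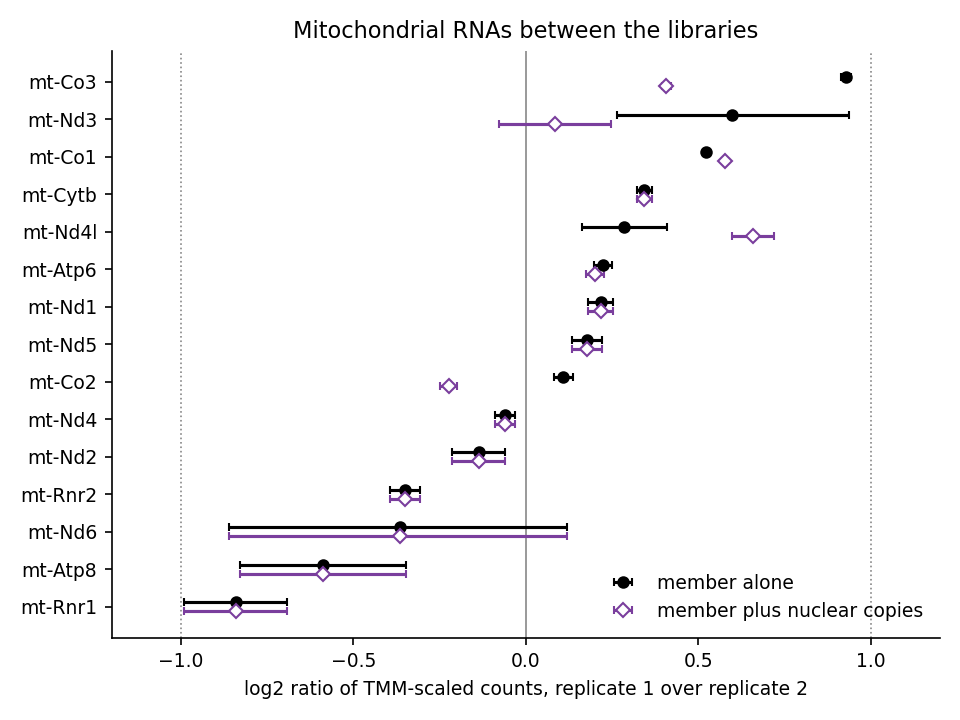
Log2 ratio of TMM-scaled counts, replicate 1 over replicate 2, for the 15 members alone (black circles) and with the counts of their nuclear copies added (open diamonds), with 95% exact binomial intervals for counting error and dotted lines at 2-fold. mt-Co3 moves from 0.93 to 0.41 and mt-Co2 from 0.11 to -0.22, and no point passes a dotted line.

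The acinar, erythroid, sex-linked and striated muscle differences lie between the same 2 libraries as these ratios, and their part in the ratios was not tested. With small RNAs, the abundant transcript Gm42418 and the acinar genes taken out of the total, the mitochondrial share was 1.54% in replicate 1 and 1.13% in replicate 2. This changes the total only and cannot show what those differences contribute.

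Nuclear genes that make the same complexes were set beside the members. For complex IV, 16 of 18 nuclear subunit genes were tested and had a median log2 ratio of 0.14, with 0 at least 2-fold higher in replicate 1, against 3.63% of all genes, and 1 at least 2-fold higher in replicate 2, against 5.11%. That gene, Cox6a2, the isoform of heart and skeletal muscle, had only 4 and 20 counts. Of the striated muscle genes tested, Acta1 and Ckm were higher in replicate 1. Tnnt3, with 5 and 12 counts, was higher in replicate 2. The highest of the 18 nuclear subunit genes was Cox6a1, a small nuclear subunit, at 6631 and 5959 TPM. Cox8a followed at 5899 and 3012 TPM. Cox4i1, a subunit that regulates the enzyme, was at 1529 and 1333 TPM. Cox6a1, Cox8a and Cox4i1 had log2 ratios of 0.10, 0.91 and 0.16. Summed levels were 18780 and 14135 TPM for the 18 nuclear subunit genes and 15908 and 10305 TPM for the 3 mitochondrial ones. The mitochondrial sums leave out the near-identical copies, of which Gm29216 alone was at 12220 and 6738 TPM. So which side was higher depended on whether the copies were counted in.

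For complexes I, III and V the nuclear sums were above the mitochondrial ones. For complex I, 37 nuclear genes summed to 8403 and 7330 TPM, with a median log2 ratio of 0.16. Ndufs7, an iron-sulfur subunit, led with 955 and 832 TPM. For complex III, 9 nuclear genes summed to 6374 and 5618 TPM, with a median of -0.20. For ATP synthase, 17 nuclear genes summed to 13648 and 13228 TPM, with a median of -0.10, and were led by Atp5b, the catalytic beta subunit, at 5102 and 4775 TPM. Complex II, which has no mitochondrial subunit, had 4 genes with sums of 887 and 838 TPM and a median of 0.01. None of the genes of complexes I, II, III and V was 2-fold apart, against 8.74% of all genes tested.

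Of 10 genes for mitochondrial transcription, 9 were tested, and their median log2 ratio was -0.18. Polrmt, the mitochondrial RNA polymerase, was at 64.0 and 69.7 TPM. Tfam, which packages and activates the DNA, was at 6.09 and 6.28 TPM. Mterf3, a regulator of mitochondrial transcription and ribosome assembly, had the highest TPM of the list, at 267 and 176, from 324 and 368 counts. Polrmt had more counts, 4886 and 5395. Since TPM is per effective length, the rank of Mterf3 rests on that length and not on counts alone. Its TPM was higher in replicate 1 and its counts in replicate 2. At least 2-fold higher in replicate 2 were Tfb1m, an rRNA methyltransferase, with 19 and 51 counts, and Mterf2, with 11 and 27. Both rest on few reads, and they are 2 of the 9 tested, against 5.11% of all genes tested.

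Among 26 genes for processing of mitochondrial RNA the median was -0.07, and only Tfb1m, which this list also holds, was 2-fold apart. Over all genes tested, 8.74% were 2-fold apart. Fastk, a member of a family of mitochondrial RNA-binding proteins, led with 448 and 346 TPM, before Tbrg4 of the same family with 167 and 179 TPM. Hsd17b10, a subunit of the enzyme that cuts tRNA 5′ ends, was at 41.6 and 45.9 TPM. Of the 5 genes for RNA decay, none was 2-fold apart, and the median was 0.11. Rexo2, which degrades short RNA remnants, led with 38.3 and 32.3 TPM. The 6 genes for replication of the DNA had a median of -0.15 with none 2-fold apart. Polg, the DNA polymerase, was at 48.9 TPM in both libraries.

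The deposited contigs, which are stretches of transcribed genome called on mm9 over both libraries together, gave a view without gene models. Of 562412 contigs, 12 lie on chromosome M, and they held 0.771% of all contig coverage. No mm9 annotation was used here, so no gene is assigned to them. The authors' level of a contig is its mean coverage per base times a constant. It was 1960 for M:3758-6853 (mm9, plus strand), rank 15 of all contigs, and this stretch held 79.7% of the mitochondrial coverage. The other contigs with a level above 10 were M:35-1005 at 15.6, M:1054-3735 at 149, M:10692-11544 at 350 and M:11754-16297 at 182, all on the plus strand.

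Between M:6853 and M:10692 the contigs were of another order. The 7 there lie between M:7932 and M:9963 and had levels of 0.081 to 0.32, against a median of 0.228 over all contigs. Only M:9415-9656, at 0.32, was above that median, with rank 211216 of 562412. The others ranked from 472624 to 534960. The 2 on the minus strand, M:9392-9601 and M:9760-9963, together held 0.00052% of the mitochondrial coverage. How reads that match several places were treated in this file is not given in the sources used here.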

How the data were processed

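Polyadenylated colon RNA was measured in 2 libraries of 1 group. Expected counts per gene and transcript, as deposited by the authors, are not normalized. The same tables hold TPM and FPKM, which the authors scaled per effective length and depth. Per the deposited notes the tables rest on mm10 and GENCODE M4. The quantifier is not given in the sources used here. The authors' deposited junction file gives read counts, and their deposited contig file gives coverage signal, both on mm9.

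From these, symbols and sequences came from GENCODE vM21 by identifier without version. Of 43346 Ensembl genes, 42462 matched. Features that are not Ensembl genes held 0.895% and 1.02% of counts. Expected counts were rounded and scaled by TMM (edgeR 4.0.16, R 4.3.3). Log2 ratios are replicate 1 over replicate 2 with 0.5 added, for 17713 genes whose counts sum to 10 or more, and called at 2-fold. The libraries' biological coefficient of variation was 0.271. No p-value is given, since each side is 1 library. Intervals are exact (Clopper-Pearson) 95% and cover counting error only. The ratio step was tested on simulated data with counting error only. It recovered the changed genes, and some unchanged genes also passed 2-fold.

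Chromosome M was rebuilt from gene transcripts, with 57 bases inside the gene span not covered. Nuclear copies are transcripts elsewhere that match it by blastn 2.17.0 at 90% identity or more over at least 80% of their length. All members may be named. Of the other lists, the 3 highest by TPM and any gene 2-fold apart could be named, and of the copies the 6 with most counts. Gm28439 was named beyond this rule, to complete the row of copies. Members and lists were chosen with earlier results of these data known. Alternatives tried were other abundance estimates and scalings (DESeq2 1.42.0 size factors), count minimums, added values, copies added to members, and each library left out.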

Additional observations from a re-analysis of the deposited data

How the results depend on the processing

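No paired analysis was possible because there is 1 group and no pair of groups shares replicate numbers. The summed mitochondrial TPM, 18973 ± 5271 as reported, was 30922 with the nuclear copies added, and 15246 to 22701 with either library left out. The percent of counts, 1.30 as reported, was 1.58 with the nuclear copies added and 1.08 to 1.52 with either library left out. The cytochrome c oxidase share of mRNA TPM (69.7%) was 68.0% with posterior mean TPM and 78.0% per annotated length. With settings chosen after seeing the data it was 79.97% with copies added per annotated length and 76.5% without mt-Atp8. Leaving out either library gave 68.7% to 70.6%. The log2 ratio of summed counts (0.49) was 0.50 scaled by total counts, 0.57 as a ratio of TPM, 0.45 with copies added and, chosen after seeing the data, 0.42 without mt-Co1. With a ratio of TPM, 1 member was 2-fold apart in place of 0, namely mt-Atp8, whose log2 ratio reversed from -0.59 to 1.04. Its effective length differs between the libraries by construction. With copies added, mt-Co2 reversed to -0.22. Over the 15 members' ratios under 4 alternatives, 11 values moved by more than their counting interval and 2 reversed. Most of the other 47 were fixed by construction, since DESeq2 and total-count scaling shift every gene by 1 constant each (0.00512 and 0.00834) and most members have no copy counts to add. Depth limits mt-Nd6, with 65 and 82 counts, mt-Nd3 and mt-Atp8, and 2 libraries give no test of a difference.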

Other observations

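The deposited junction file, on mm9, lists 205 junctions on chromosome M, although mitochondrial genes are known to have no introns. They held 554 reads in all, 316 in the library column R1 and 238 in R2, which the file does not tie to replicate numbers. A lone read supported 74.6% of them, against 37.9% of the 402434 junctions on other chromosomes, and 10.2% were found in both libraries, against 41.0%. Their median span was 109 nt, against 1715 nt elsewhere. The highest, M:6458-6518 (mm9) with a span of 61 nt, had 115 reads, 59 in R1 and 56 in R2. A cluster of 22 junctions between M:6448 and M:6535, all within 20 nt of the highest and chosen after the values were seen, held 286 reads, or 51.6% of those on chromosome M. The cause was not tested.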
